A study of Mus musculus with 10 samples.

Results

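Club cells are the secretory cells of the small conducting airways of the mouse. They release secretoglobins, a family of small proteins, into the airway lining fluid, they metabolize inhaled compounds through cytochrome P450 and other enzymes, and they can divide to renew themselves and the ciliated cells beside them. Secretoglobin 1A1 is the protein by which these cells are usually recognized. The 6 genes described here are Scgb1a1, Scgb3a2 and Scgb3a1, which encode secretoglobins, Bpifa1, which encodes a secreted antimicrobial protein of the airways, and Cyp2f2 and Cbr2, which encode a cytochrome P450 and a carbonyl reductase. They were taken by gene symbol from a table of 24059 genes, and all 6 were found in it.

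RNA was sequenced from whole lungs, flushed with PBS, of 10 female C57Bl/6 mice of 14 weeks of age, 5 in each diet group. Both groups received a semipurified high-fat diet, described as 19% fat and 0.2% cholesterol, for 8 weeks, in which the fat was rich in fish oil (FO) or in coconut oil (CO). The study's own listing of the diets gives less cholesterol for FO than for CO, so the fat source and the cholesterol content cannot be told apart here. No group on ordinary chow is part of the comparison, so each difference below is between 2 high-fat diets. The comparison asks whether the dietary fat altered the expression of these airway genes.

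The deposited values were whole-number counts per gene. The total per mouse ranged from 229766 to 1124963 counts, of which the ribosomal precursor Rn45s took between 21.8% (CO4) and 87.0% (FO3), which left 45177 to 473254 counts for all other genes. The nuclear RNA Malat1 took 8.53% of the counts outside Rn45s in FO2 and 6.15% in CO5, and at most 1.05% in the other mice. Levels are given as CPM, read counts per library scaled by the trimmed mean of M-values (TMM). The filter on low counts kept 2438 genes, including all 6 club cell genes. A gene was called at an unadjusted p under 0.05 in edgeR's quasi-likelihood test, the nominal threshold used in the study, with the Benjamini-Hochberg adjusted p over all tested genes beside it.

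None of the 6 club cell genes was called between the diets (0 of 6, beside 2.91% of all genes tested, 71 of 2438, with 1.68% higher and 1.23% lower in the FO group). The fold change was below 0, lower in the FO group, in 5 of 6 genes, as it was in 49.4% of all genes tested, and only Cbr2 was above 0. The median log2 fold change of the 6 genes was -0.33, and that of all tested genes was 0.0034. The adjusted p of each gene in edgeR was 0.998, 0% of the tested genes passed the adjusted threshold with edgeR, and DESeq2 called none of the 6 either (2.54% of all genes). The FO and CO groups overlapped for each of the 6 genes, whereas 0.41% of all tested genes did not overlap.

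The count of called genes was not steady. Without FO3 the test called Bpifa1 (beside 2.46% of all genes), without FO5 it called Scgb3a1 (2.29%), and without FO4 (2.64%) or without CO5 (3.13%) it called both, each lower in the FO group. Leaving out each of the other 6 mice in turn called none. Without FO1, the lowest mouse for both genes, the edgeR p was 0.226 for Scgb3a1 and 0.237 for Bpifa1. It was similarly high without CO1 for Scgb3a1 (0.247) and without CO2 for Bpifa1 (0.253). With all 10 mice, limma-voom with quality weights called both (4.8%), edgeR without the filter called Scgb3a1 (4.15%), and edgeR by library size alone called Bpifa1 (1.48%). A set of libraries chosen after the data were seen, FO2, CO4 and CO5 (the 2 highest Malat1 shares and the lowest Rn45s share), was also left out, and 5 of the 6 genes were then called lower in the FO group, with Cbr2 the exception, beside 4.87% of the 1827 genes tested. This set removes the 2 CO mice in which the summed level of the 6 genes was lowest, which was known when the set was chosen, so the 5 calls carry no independent weight, and the lowest adjusted p among them in edgeR was 0.874. Leaving out FO2 and CO5 alone called 1 of 6, Scgb3a1 (3.93%).

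**Figure D1:**
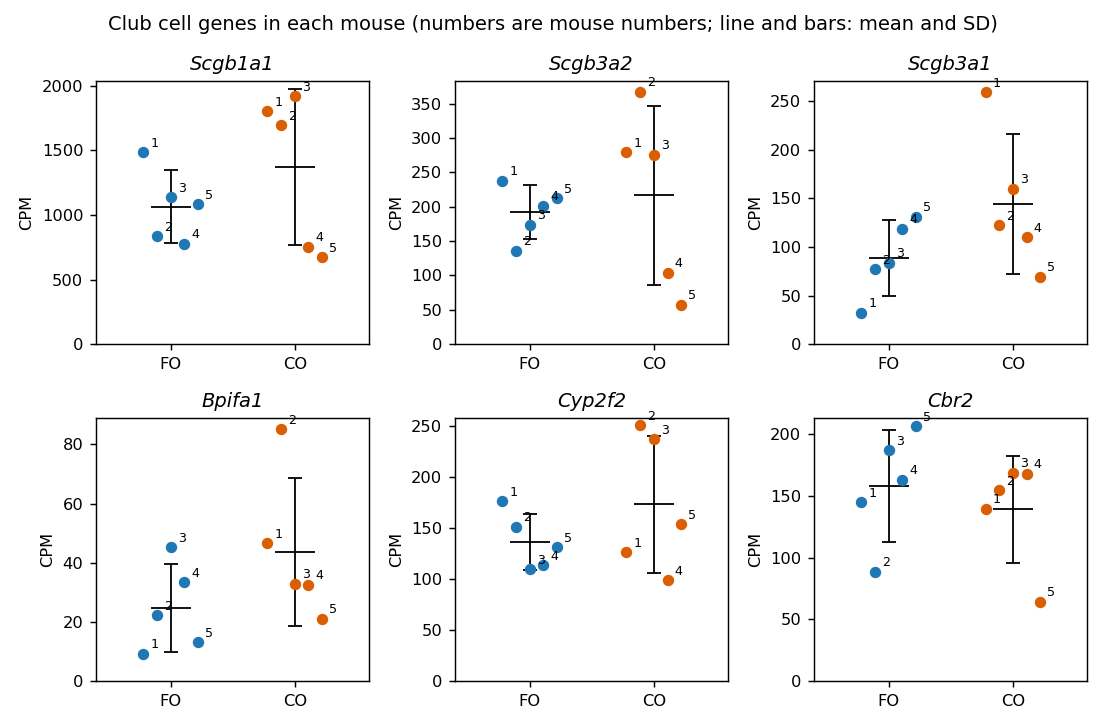
Level of each club cell gene (CPM, linear axis from 0) in every mouse, with mouse numbers beside the points and the mean and SD of 5 mice as line and bars. The groups overlap in each panel, and for Scgb1a1 and Scgb3a2 the CO mice lie apart, with CO1, CO2 and CO3 above and CO4 and CO5 below the whole FO group.

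Scgb1a1 (ENSMUSG00000024653.2, chromosome 19, 9083636 to 9087958, minus strand, mm10) encodes the main secretoglobin of club cells. Its level was 1488, 836.1, 1136, 777.0 and 1084 CPM in FO1 to FO5, and 1801, 1694, 1919, 755.8 and 673.3 CPM in CO1 to CO5. The 5 FO values all lay below the CO median of 1694 CPM, and all lay within the CO range, because CO4 and CO5 were below every FO mouse. The mean was 1064 ± 283 CPM with FO and 1369 ± 603 CPM with CO (SD, n = 5 each). The log2 fold change (FO minus CO) was -0.36 (SE 0.31, 95% interval -1.01 to 0.29, unadjusted p = 0.264 in edgeR), and the 2-sided exact permutation test of the mean log2 CPM gave p = 0.476. With 5 mice a group, the smallest p that this exact test can give is 0.0079.

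Scgb3a2 (ENSMUSG00000038791.14, chromosome 18, 43764289 to 43767399, plus strand) encodes a secretoglobin of the airway epithelium. It was measured at 238.2, 136.0, 174.2, 201.4 and 212.8 CPM in FO1 to FO5 and at 279.1, 367.5, 276.0, 103.9 and 57.75 CPM in CO1 to CO5. The arrangement was that of Scgb1a1: CO1, CO2 and CO3 lay above every FO mouse, and CO4 and CO5 below. The means were 192.5 ± 39.1 CPM (FO) and 216.9 ± 131 CPM (CO; SD, n = 5 each). The log2 fold change was -0.11 (SE 0.38, 95% interval -0.90 to 0.68, p = 0.772 in edgeR), and the exact permutation test gave p = 0.881, for a difference of mean log2 CPM with the opposite sign to that of edgeR. The sign of this difference was not settled, as the fold change was above 0 without FO2 (0.02), without CO2 (0.15) or without CO3 (0.02).

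Scgb3a1 (ENSMUSG00000064057.12, chromosome 11, 49663610 to 49665118, plus strand), another secreted member of the family, had levels of 32.22, 77.19, 83.87, 118.6 and 131.0 CPM in FO1 to FO5. The CO mice had 259.2, 122.5, 159.9, 110.2 and 69.56 CPM. FO1 was the lowest and CO1 the highest of all 10 mice, and the remaining values of the groups were interleaved. The means were 88.57 ± 38.8 CPM and 144.3 ± 71.9 CPM (SD, n = 5 each). The log2 fold change was -0.66 (SE 0.37, 95% interval -1.43 to 0.11, p = 0.0868 in edgeR), and the exact permutation test gave p = 0.183. The interval runs from a fold of 0.37 to a fold of 1.08, so neither a clear reduction nor an equal level could be shown with these mice.

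Bpifa1 (ENSMUSG00000027483.7, chromosome 2, 154142880 to 154149219, plus strand) was the least abundant of the 6 genes, with 4 to 31 counts per mouse. Its level was 9.21, 22.16, 45.16, 33.35 and 13.10 CPM in FO1 to FO5 and 46.52, 85.22, 32.86, 32.54 and 21 CPM in CO1 to CO5. CO2 was the highest mouse, and FO1 and FO5, with 8 and 4 counts, were the lowest. The means were 24.60 ± 14.8 CPM and 43.63 ± 24.9 CPM (SD, n = 5 each), with a log2 fold change of -0.77 (SE 0.43, 95% interval -1.67 to 0.12, p = 0.0873 in edgeR) and p = 0.159 in the exact permutation test. This was the most negative fold change of the 6 and also the one with the widest interval.

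Cyp2f2 (ENSMUSG00000052974.8, chromosome 7, 27119909 to 27133660, plus strand) encodes the P450 enzyme that activates naphthalene in mouse club cells. It was at 176.1, 151.3, 109.7, 113.6 and 131.0 CPM in FO1 to FO5 and at 126.3, 250.3, 236.6, 98.68 and 153.6 CPM in CO1 to CO5. CO2 and CO3 were above all FO mice and the other CO mice were among or below them. The means were 136.3 ± 27.6 CPM and 173.1 ± 67.3 CPM (SD, n = 5 each), a log2 fold change of -0.31 (SE 0.27, 95% interval -0.88 to 0.26, p = 0.264 in edgeR; exact permutation p = 0.349). The gene overlaps Gm15883, annotated on the opposite strand, and the strand setting of the counting is not given in the sources used here, so reads of both could be counted together.

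Cbr2 (ENSMUSG00000025150.10, chromosome 11, 120729489 to 120732114, minus strand) encodes a carbonyl reductase abundant in mouse lung. The FO mice had 145.0, 88.65, 187.1, 163.1 and 206.3 CPM and the CO mice 139.6, 154.5, 168.7, 168.0 and 64.31 CPM. FO3 and FO5 were above every CO mouse, FO2 and CO5 were the lowest, and the other mice were interleaved. The means were 158.0 ± 45.2 CPM and 139.0 ± 43.4 CPM (SD, n = 5 each), with a log2 fold change of 0.17 (SE 0.29, 95% interval -0.44 to 0.77, p = 0.573 in edgeR; exact permutation p = 0.524). Without CO5 the fold change of Cbr2 was -0.04, so its direction opposite to the other 5 genes rested on that mouse. It also depended on the scaling: by library size alone, which moved the median of all tested genes to -0.55 and the calls to 1 higher and 35 lower (41 and 30 with TMM), Cbr2 was at -0.47.

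**Figure D2:**
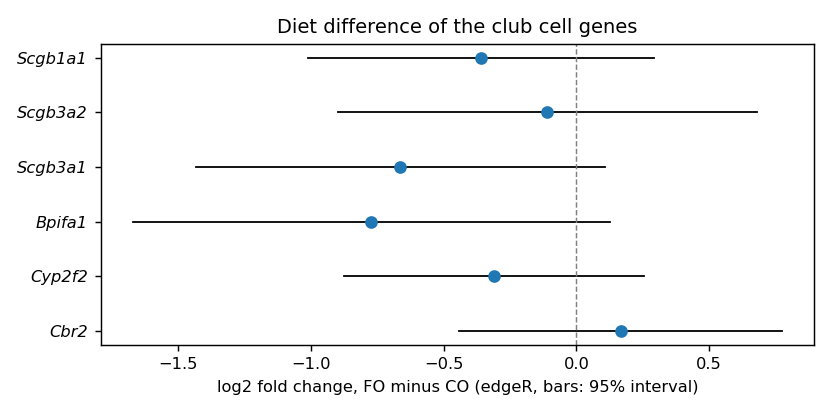
Log2 fold change (FO minus CO) of each club cell gene from edgeR, with 95% intervals as bars and a dashed line at 0. Each of the 6 intervals includes 0, and they reach down to -1.67 for Bpifa1 and up to 0.77 for Cbr2.

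The letters before the transcription start of Scgb3a1, Bpifa1 and Cyp2f2 are printed because these are the members whose windows held strings known from factors of airway epithelium. RefSeq (GRCm38.p6) windows of 250 bases before the RefSeq start were found for 4 of the 6 genes, namely these and Cbr2, but not for Scgb1a1 and Scgb3a2. Capitals mark matches, on either strand, to CTCAAG or CACTTGA (NKX2-1), to TGTTTAC or TGTTTGC or TATTTAC or TATTTGC (FOXA), to TTNNGCAA (C/EBP) and to TATAAA (the TATA box). The windows are chr11:49663345-49663594, chr2:154142630-154142879 and chr7:27119705-27119954, all on the plus strand. The last 46 bases of the Cyp2f2 window lie inside the gene as GENCODE annotates it and are not printed, which leaves chr7:27119705-27119908.
Scgb3a1: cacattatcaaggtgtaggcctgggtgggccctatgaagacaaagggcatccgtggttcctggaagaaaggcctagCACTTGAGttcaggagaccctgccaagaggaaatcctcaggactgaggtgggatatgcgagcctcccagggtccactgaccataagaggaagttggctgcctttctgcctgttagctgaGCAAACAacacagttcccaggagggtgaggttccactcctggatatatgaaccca
Bpifa1: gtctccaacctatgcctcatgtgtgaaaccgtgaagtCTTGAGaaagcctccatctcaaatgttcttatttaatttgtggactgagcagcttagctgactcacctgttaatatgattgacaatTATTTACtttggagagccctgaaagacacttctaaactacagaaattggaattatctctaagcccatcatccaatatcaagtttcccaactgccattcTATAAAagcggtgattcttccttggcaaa
Cyp2f2: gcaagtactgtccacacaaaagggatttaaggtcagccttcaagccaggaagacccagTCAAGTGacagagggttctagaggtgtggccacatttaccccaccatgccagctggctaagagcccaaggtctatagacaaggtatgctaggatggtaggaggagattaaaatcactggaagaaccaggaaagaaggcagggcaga
In Scgb3a1, CACTTGA and the reverse complement of CTCAAG overlapped and form 1 run of capitals. An NKX2-1 string was in 3 of 4 windows and in 14.9% of 32851 promoter windows of the same length, a FOXA string in 2 of 4 and 11.9%, and TATAAA in 1 of 4 (Bpifa1) and 12.4%. The C/EBP string was in 0 of 4 windows and 9.56% of all, and the window of Cbr2 held no match. These matches are descriptions of letters and were not tested for binding.

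Compared per kilobase of exon, which allows levels of different genes to be set side by side, Scgb1a1 stood above the other members in all 10 mice. Its median level was 2331 CPM per kilobase (range 1415 to 4031), 11.7 times that of Scgb3a2 by the median of the ratios within a mouse. Scgb3a2 (median 235 CPM per kilobase, range 65.6 to 418), Scgb3a1 (191, 53.9 to 433), Cbr2 (120, 48.5 to 155) and Cyp2f2 (69.7, 48.7 to 124) followed with ranges that overlapped between neighbours. Bpifa1 was at 21.2 CPM per kilobase (range 5.96 to 55.2). It was below Cyp2f2 in all 10 mice, although the 2 ranges overlapped. Scgb1a1 made up 55.2% to 71.2% of the summed counts of the 6 genes in every mouse.

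**Figure D3:**
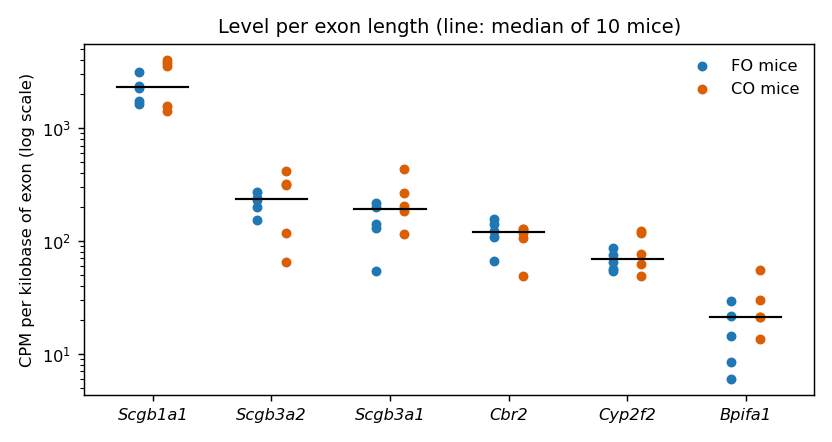
CPM per kilobase of exon (log scale) of the 6 genes in each FO and CO mouse, with a line at the median of 10 mice. Scgb1a1 does not overlap the gene next in order, and the ranges of all other neighbours overlap.

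Summed over the 6 genes, the club cell genes took 0.725%, 0.363%, 0.579%, 0.483% and 0.595% of the counts outside Rn45s in FO1 to FO5 and 0.883%, 0.902%, 0.936%, 0.431% and 0.309% in CO1 to CO5. The CO mice thus formed a high set of 3 and a low pair, and the CO range contained the FO range. The ratio of the group means was -0.34 on the log2 scale, less than the SD of 0.59 between mice, and ran from -0.52 (without CO5) to -0.20 (without CO3) with a mouse left out. In whole lung, fewer club cells and less of these RNAs per club cell cannot be told apart.

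The lists of other genes moved in different directions between the CO mice. The 18 measured genes of other airway secretory products split the CO mice as the club cell genes did, with 0.359%, 0.320% and 0.269% of counts outside Rn45s in CO1, CO2 and CO3 and 0.152% and 0.153% in CO4 and CO5, and took 0.185% to 0.315% in the FO mice. The 9 fibroblast and smooth muscle genes also did, with 0.474% to 0.566% in CO1, CO2 and CO3, 0.372% in CO4 and 0.336% in CO5, beside 0.471% to 0.723% in the FO mice. The alveolar type 1 list was highest in CO4 and CO5 (0.863% and 0.548%), and ran from 0.325% to 0.463% in all other mice. The 21 ciliated cell genes took 0.413% in CO4 and 0.307% in CO5, and 0.192% to 0.244% in the other mice. That CO4 and CO5 stood above CO3 came from Sec14l3, with 3847 counts over all mice. Without it the other 20 ciliated genes took 0.0376% to 0.0837% in the CO mice, highest in CO3, with 0.0716% in CO4 and 0.0636% in CO5. In the FO mice these 20 genes took 0.0328% to 0.0571%, and of the CO mice only CO1, at 0.0376%, was not above that range. The defining ciliated factor Foxj1 had 35 counts over all mice, and 1 ciliated gene, Dnah5, was at 0 in each. Sec14l3 held most of the ciliated sum, with 959 of 1160 counts in CO4 and 623 of 786 in CO5. Set against that sum, the club cell sum ran from 1.496 to 3.374 with FO and from 1.01 (CO5) to 4.20 (CO1) with CO. Set against 14 alveolar type 2 genes it ran from 0.321 to 1.07 and from 0.310 to 1.596. The part of these lists in the differences between mice was not tested.

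**Figure D4:**
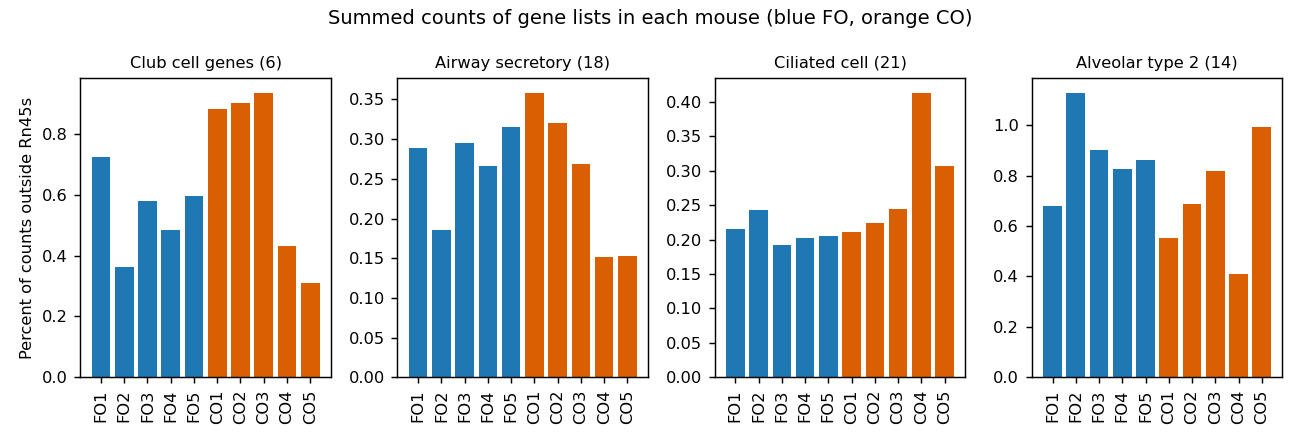
Summed counts of 4 gene lists in each mouse (percent of counts outside Rn45s, bars from 0; blue FO, orange CO). CO4 and CO5 are the lowest CO mice for the club cell genes, at 0.431% and 0.309%, and also the lowest for other airway secretory genes, at 0.152% and 0.153%. Their high ciliated bars, 0.413% and 0.307%, are mostly counts of 1 gene, Sec14l3. Without it CO3 is highest (0.0837%), followed by CO4 (0.0716%) and CO5 (0.0636%).

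The spread of each gene over the 10 mice is given beside the part that counting alone would give. The coefficient of variation was 38.8% for Scgb1a1 (4.83% from counting), 44.8% for Scgb3a2 (12.2%), 53.1% for Scgb3a1 (16.4%), 63.9% for Bpifa1 (30.9%), 33.8% for Cyp2f2 (14.4%) and 28.9% for Cbr2 (14.0%). Within a library, the ratio of Scgb1a1 to Scgb3a1 counts was 6.55 to 13.83 in 9 mice and 46.18 in FO1, where 1293 counts of Scgb1a1 stood against 28 of Scgb3a1.

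Across the 10 mice, Scgb1a1 and Scgb3a2 varied together (log2 CPM, Pearson r = 0.85, permutation p = 0.00057, adjusted over 15 pairs 0.00855; Spearman rho = 0.891, permutation p = 0.00129, adjusted 0.0193). The relation held as r = 0.847 without CO3 and CO5, the mice farthest from the median of Scgb1a1, and as r = 0.895 after the diet means were removed. Within a diet it was r = 0.957 in the 5 CO mice and r = 0.597 in the 5 FO mice. The adjusted permutation p was 0.0562 without CO2 and 0.0525 without CO5. No other of the 15 pairs passed the adjusted threshold. Of all pairs, 13 had a positive r, with a median of 0.33, beside a median of -0.001 and a 90th percentile of 0.52 for pairs of all tested genes. The next highest, Scgb3a2 with Cbr2 (r = 0.65, permutation p = 0.0481, adjusted 0.266) and Scgb1a1 with Cyp2f2 (r = 0.60, permutation p = 0.0696, adjusted 0.266), did not pass after adjustment. The former had a Spearman rho of 0.164, an r of 0.363 without CO4 and CO5, and an r of 0.179 without CO5 alone. Cyp2f2 had an r near 0 or below with Scgb3a1 (-0.06) and with Cbr2 (-0.14). Within a diet, with 5 mice each, several pairs with a positive r in the CO mice had a negative r in the FO mice. Examples were Scgb1a1 with Scgb3a1 (0.798 in CO, -0.705 in FO) and Bpifa1 with Cyp2f2 (0.431 and -0.844). Other pairs were positive in both, such as Scgb3a2 with Cbr2 (0.718 and 0.666).

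The number of counts outside Rn45s was set against the club cell genes, since it differed widely between mice. For single genes, r ran from -0.63 (Scgb1a1; permutation p = 0.0561, adjusted over 6 genes 0.169) to -0.086 (Cyp2f2; permutation p = 0.805, adjusted 0.805), and none passed after adjustment. The mean log2 CPM of the 6 genes ran from 6.58 in CO5 to 8.00 in CO2, and it was lower in mice with more counts outside Rn45s (r = -0.731, permutation p = 0.0188, adjusted over 3 library measures 0.0564; rho = -0.806, permutation p = 0.00728, adjusted 0.0218). This was r = -0.778 without CO1 and FO3. With the Rn45s share the mean had r = 0.59 (permutation p = 0.0674, adjusted 0.0792; rho = 0.745, permutation p = 0.0171, adjusted 0.0256; r = 0.623 without CO4 and CO5). With the Malat1 share it had r = -0.604 (permutation p = 0.0792, adjusted 0.0792; rho = -0.60, permutation p = 0.0719, adjusted 0.0719), which rested on FO2 and CO5 (r = -0.0932 without them). The part of the counts outside Rn45s in the correlation of Scgb1a1 with Scgb3a2 was not tested.

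**Figure D5:**
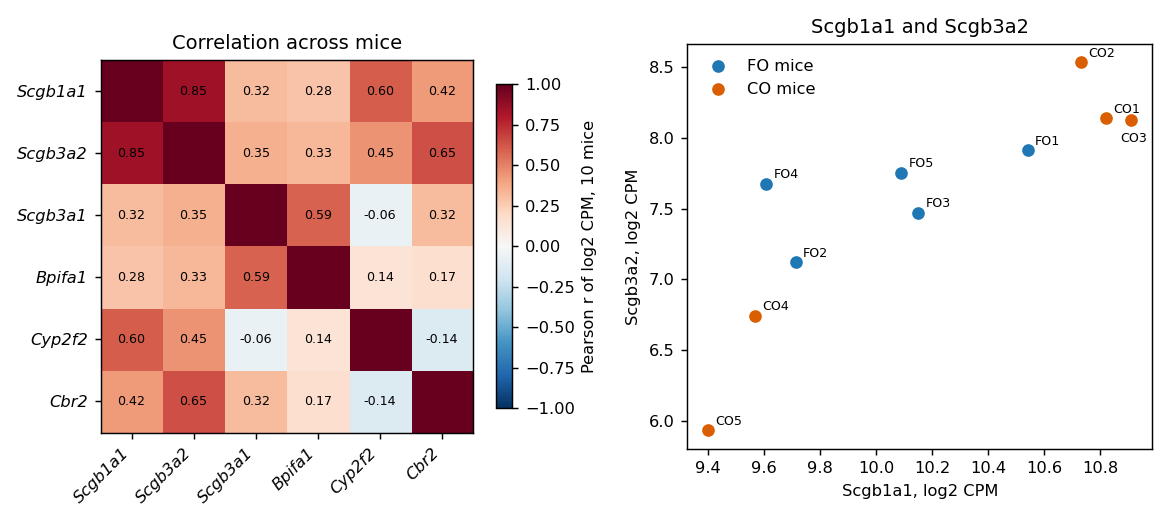
Left, Pearson r of log2 CPM over 10 mice for each pair of club cell genes. Right, log2 CPM of Scgb1a1 against Scgb3a2 in each mouse, where r = 0.85 and where FO mice lie between CO4 and CO5 at the low end and CO1, CO2 and CO3 at the high end.

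The genes whose log2 CPM was most like the mean of the 6 club cell genes were sought among 2432 other tested genes over 10 mice. The highest were Srf (r = 0.917), Klf6 (0.867), Tmcc3 (0.854), Snx1 (0.85) and Arih1 (0.848). Without CO2 and CO5 the r was 0.842, 0.843, 0.637, 0.625 and 0.779 in the same order. None of them was called between the diets, beside 2.91% of all genes tested. Of the other airway secretory genes listed, Wfdc2, a secreted protease inhibitor-like protein, was the highest at r = 0.809, in place 12 of all genes. The rest of that list, where tested, ran from r = 0.0148 to r = 0.638 (Pigr, place 79). Tested detoxifying enzymes ran from -0.222 (Prdx6) to 0.62 (Aldh1a1). These values are descriptions over the same 10 libraries.

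Most of the listed genes of airway secretory cells were too rare to be tested between the diets, and the share of called genes over the whole table, 2.91%, would leave lists of this size with few calls or none. Of 18 further secreted or surface products in the table, 5 passed the filter and 0 were called, with a median log2 fold change of 0.20. The log2 fold change was -0.16 (SE 0.22) for Wfdc2. Pigr, the receptor that carries immunoglobulins across epithelium, was at 0.43 (SE 0.43, 95% interval -0.48 to 1.34), and Hp, haptoglobin, at 0.13 (SE 0.31). Of 22 further detoxifying enzymes, 10 passed and 0 were called, with a median of 0.06. Several enzymes typical of club cells were too rare to be tested, such as Cyp2a5 with 48 and Aldh1a7 with 50 counts over all 10 mice. Of 26 regulators of secretory cell identity, 7 passed and 1 was called, Wwtr1, a coactivator of the Hippo pathway. Wwtr1 was at 92.17 ± 12.9 CPM with FO and 130.6 ± 38.6 CPM with CO (SD, n = 5 each). Its log2 fold change was -0.55 (SE 0.24, adjusted p = 0.998 in edgeR), and the call was lost with all genes with any count, with limma-voom, with the replicate block and without FO1, FO2, FO4 or CO4 (-0.32 without CO4), and without FO2, CO4 and CO5 together (-0.23). With all genes with any count, 1 further secreted or surface product (Cldn10) and 1 enzyme (Ces1f) were called, both higher and both with few counts (17 and 4 in all). Nkx2-1, Foxa1 and Sox2, known regulators of airway epithelium, had 40, 16 and 23 counts in all and were not tested.

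Among markers of neighbouring cell types, 2 of 21 ciliated genes passed the filter, Sec14l3 (log2 fold change -0.39, SE 0.25) and Tppp3 (-0.62, SE 0.30). Of these, 0 were called, beside 2.91% of all genes tested. None of the 7 goblet, 6 basal and 9 neuroendocrine cell genes passed. Muc5ac, the mucin of goblet cells, and Krt5 and Trp63, markers of basal cells, were at 0 in all mice, which allows up to 0.000634% (FO2) to 0.00664% (CO1) of counts outside Rn45s by counting error. The general epithelial genes Krt8 and Krt18 were also at 0 in every mouse, so a 0 in this table need not mean that a gene is not expressed. Of 14 alveolar type 2 genes, 10 passed, and 0 were called (median 0.31), beside 2.91% of all genes tested. The lowest log2 fold changes among the 10 were 0.0023 and 0.011. All 10 were above 0, where 49.4% of all genes tested were below 0. This tally was 9 of 10 with DESeq2 or RLE scaling, 8 with limma-voom, 2 by library size alone and 5 to 10 with a mouse left out (5 without FO2). In the remaining lists only Akap5 (lower, in the alveolar type 1 list) and Acta2 (higher, in the fibroblast and smooth muscle list) were called. With all genes with any count (4.15% called), Ccdc113 of the ciliated list (-2.07, 21 counts in all) and Cldn18 were also called lower. Il33, of the alveolar type 2 list, and Myh11, Cd68, Tnnt2 and Tnni3 of other lists were then called higher. Akap5 was not called with limma-voom, without CO4 (-0.58), or without FO2, CO4 and CO5 (0.04), and Acta2 was not called by library size alone. Acta2, with 169 counts in all, was not tested with at least 10 counts in every mouse, without FO2 or without FO4. It was also not tested without FO2 and CO5, or without FO2, CO4 and CO5.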

How the data were processed

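Total RNA of whole lung from 10 mice, 5 per diet, was prepared with TruSeq RNA v2 or riboZero kits. Which mouse had which kit, and the annotation and strand setting of the counting, are not given in the sources used here. The authors aligned single-end reads to mm10 with STAR 2.4.0f1, sorted them with SAMtools 0.1.19 and deposited raw counts per gene from htseq-count. No 2 libraries were identical. Whether the mice of a group shared a cage is not stated.

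Here, genes were filtered by filterByExpr (minimum count 10, minimum total 15), scaled by TMM and tested with edgeR 4.0.16 (quasi-likelihood, 2 groups, no covariate). CPM used the TMM-scaled totals of the tested genes, Rn45s included, and log2 CPM a prior count of 2. Correlations used 100000 permutations, or 20000 where a mouse was left out. Exon lengths and coordinates came from GENCODE vM21. Alternatives used limma 3.58.1 and DESeq2 1.42.0, R 4.3.3 and Python 3.11.15 with scipy 1.17.1. The scripts were tested on simulated data. Intervals, and limits of 3 counts for a gene at 0, cover counting error only.

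The genes and lists were chosen with earlier results of these data known. From each of 15 lists the called genes and up to 3 of the most abundant tested genes could be named, with the 5 genes most like the members. Foxj1, Cyp2a5, Aldh1a7, Nkx2-1, Foxa1, Sox2, Dnah5 and the keratins and mucin at 0 are named outside it, a choice made with their values in view. The same is true of the sets of 2 and 3 libraries left out together, the ratios within a library, the correlations with library measures, and the promoter window of 250 bases, shortened to end at the RefSeq start, which dropped a match in Bpifa1. The replicate numbers were checked for pairing and did not pair the mice.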

Additional observations from a re-analysis of the deposited data

Results flagged for a closer look

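In groups of 5, a mouse was looked at again where its gap to the nearest of the others, over the range of its group, exceeded 0.71. This held in 5 of 42 groups screened. About 2.1 would be flagged by chance if the groups were independent and normally distributed. They share genes and libraries, so the 5 and the 2.1 were not compared by a test. The screen had at first also held lists without a tested gene (7 of 50 groups), and these were dropped after their flags were seen to rest on very few counts.

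Cbr2 was at 64.31 CPM in CO5, and at 139.6 to 168.7 CPM in the other CO mice. The ratio of Scgb1a1 to Scgb3a1 counts was 46.18 in FO1, and 6.55 to 13.54 in the other FO mice. Malat1 took 8.532% of the counts outside Rn45s in FO2 and 6.149% in CO5, each far above the rest of its group. The general epithelial genes took 0.2921% in CO4, and at most 0.1092% in the other CO mice. This came from 1 gene, Cldn18, which held 740 of the 820 counts of the list in CO4.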

How the results depend on the processing

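Limits on these results include 4 to 31 counts per mouse for Bpifa1, at most 473254 counts outside Rn45s, and 5 mice a group. The number of club cell genes called was 0 in the main test and 0 with DESeq2, RLE scaling, Rn45s removed, robust estimation, at least 10 counts in every mouse (Bpifa1 left out) and the replicate block. It was 1 by library size alone (Bpifa1, -1.29), 1 with all genes with any count (Scgb3a1, -0.60) and 2 with limma-voom and quality weights (Scgb3a1 -0.95, Bpifa1 -0.997). It was 0 to 2 when a mouse was left out. Without FO2 and CO5 it was 1 (Scgb3a1, -0.80). Without FO2, CO4 and CO5 it was 5 (Scgb1a1 -0.68, Scgb3a2 -0.54, Scgb3a1 -0.99, Bpifa1 -1.19, Cyp2f2 -0.62); both sets were chosen after seeing the data, and the second with the low values of CO4 and CO5 known. In no setting was an adjusted p of a club cell gene under 0.752.

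Over the 10 fits that lack a mouse, the log2 fold changes were -0.53 to -0.21 for Scgb1a1, -0.37 to 0.15 for Scgb3a2, -0.86 to -0.42 for Scgb3a1, -1.06 to -0.49 for Bpifa1, -0.47 to -0.16 for Cyp2f2 and -0.038 to 0.335 for Cbr2. Cbr2 was at -0.47 by library size alone. The replicate numbers did not pair the mice (mean r of deviations -0.122 over 5 same-numbered pairs, 0.0304 over the others). With the replicate block 55 genes were called in place of 71, and Scgb3a2 was at 0.0892. The difference of mean log2 CPM of Scgb3a2 was above 0, but was -24.34 on unlogged CPM and fell to between -0.30 and -0.10 without CO5 or CO4 (range -0.298 to 0.352 over the mice left out); that of Cbr2 ran from -0.047 to 0.391.

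The listed other genes called numbered 3 of 62 (beside 2.91% of all genes), 11 of 158 with all genes with any count (4.15%) and 6 of 57 without FO2 and CO5 (3.93%). With a mouse left out they numbered from 1 of 61 without FO4 (2.64%) and 1 of 66 without CO4 (2.9%) to 10 of 61 without CO5 (3.13%), with 5 without CO1, CO2 or CO3. These settings also change which genes pass the filter. The number of correlated pairs was 0 without CO2 or CO5 and 1 otherwise, with r of Scgb1a1 and Scgb3a2 at 0.826 to 0.927. Weak correlations changed sign: Scgb3a1 with Cyp2f2 was 0.0615 and Cyp2f2 with Cbr2 0.129 without TMM, Bpifa1 with Cyp2f2 was -0.0282 on deviations from the diet means, and with a mouse left out Scgb3a1 with Cyp2f2 ran from -0.26 to 0.115 and Bpifa1 with Cyp2f2 from -0.361 to 0.32. The cause of these changes was not tested.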
